A study of Mus musculus with 6 samples.

Results

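Transcript levels of 41 genes of the lysosome were compared in microglia of PGC-1αf/f and mPGC-1α mice. The genes were listed by name, and each was taken from the deposited arrays through the transcript accession of its probes. Where a gene had several probes, the brightest one gave its value. The 41 genes stand among 23462 genes that the arrays name, and every one of them was well above background on all 6 arrays.

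PGC-1αf/f mice carry a loxP-flanked PGC-1α transgene together with eGFP and no Cre recombinase. Their mPGC-1α littermates carry in addition a tamoxifen-inducible Cre in the Cx3cr1 locus, the fractalkine receptor gene, so that Cre activity follows that promoter. The paper describes mPGC-1α mice as overexpressing PGC-1α in microglia, as seen by immunostaining and qRT-PCR. The cross thus adds PGC-1α and does not delete it. The number of Cre copies in mPGC-1α mice was not stated. The methods place a course of tamoxifen and an interval before the experiments, without stating for these arrays whether both groups received it. All 6 samples were labelled male with an age of 10 weeks, the methods give a C57BL/6 background, and the labels name no stroke or other treatment. Microglia were captured from whole brain through the surface receptor P2RY12, and each group has 3 arrays.

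The lysosome is the acidic compartment in which cells break down proteins, sugars and lipids, and in microglia it digests what they take up, such as debris, synapses and myelin. Its hydrolases work at low pH, which a proton pump in its membrane, the V-ATPase, maintains. TFEB, TFE3 and MITF are related transcription factors that switch on many lysosomal genes together through a DNA element with an E-box at its core. PGC-1α is a coactivator known for mitochondrial gene programmes, and PGC-1α and TFEB have been linked to each other in other tissues.

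Several facts of the whole series touch the values that follow. All 12 microglia markers were well above background on every array. The third PGC-1αf/f array stood apart from the rest, its correlation with the others averaging 0.928 against 0.962 to 0.972 for the remaining arrays. It also held the lowest level of the 10 monocyte and neutrophil markers, with a mean log2 level of 0.96 against 3.46 to 3.98 on the other arrays. On the third mPGC-1α array the Y-linked genes Ddx3y, Eif2s3y, Uty and Kdm5d were not well above background, although the sample was labelled male. Xist, which is transcribed from the inactive X chromosome of females, was well above background on 1 PGC-1αf/f array and 2 mPGC-1α arrays, with log2 levels of -5.44, -2.78 and -6.47 in the PGC-1αf/f samples and -5.71, -2.40 and -1.63 in the mPGC-1α samples. The labelled sex is thus not borne out for every array, and a mixed-up or mixed sample was not tested. All arrays lay on 1 slide with each group in a row of its own, so slide row and group cannot be told apart. Ppargc1a, the gene for PGC-1α, had log2 levels of 0.19, -0.44 and -1.21 in the PGC-1αf/f samples and 0.57, 0.28 and 0.077 in the mPGC-1α samples. Its difference of 0.80 (SE 0.35) did not pass limma's threshold (adjusted p = 0.306), and the groups overlapped.

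No lysosomal gene of the 41 differed between the groups past the threshold, an adjusted p of 0.05 from limma with Benjamini-Hochberg adjustment over all tested probes. Across the array 20 of 25257 tested probes (0.0792%) passed it, and the smallest adjusted p among the lysosomal genes was 0.446. At an unadjusted p of 0.05 the count was also 0 of 41, against 13.6% of the 13085 genes whose brightest probe gave a test. Differences are given as log2 fold changes, mPGC-1α minus PGC-1αf/f, where 1 stands for a doubling. They ran from -0.23 for Scarb2 to 0.28 for Atp6v1h.

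The absolute log2 fold change had a median of 0.10 over the 41 genes and of 0.20 over those 13085 genes, called all genes from here on. None of the 41 reached an absolute value of 0.5, which 17.5% of all genes did. The 95% confidence interval of the difference lay inside a 2-fold change in either direction for 40 of the 41 genes, and inside a 1.5-fold change for 30. The exception to the first count was Ctsc, with an upper bound of 1.06 on the log2 scale. Ctsc, Ppt1, Asah1 and Atp6ap2 had a value on 1 array in 1 of the groups. Their intervals rest on the spread of the other group and on the variance that limma's eBayes step shares across probes. The 37 genes with at least 2 arrays in both groups were all inside a 2-fold change. With outlier spots kept, which gave 6 values to each gene, the counts were 41 and 36 of 41. Over all genes, 77.7% had an interval inside a 2-fold change. The median SE of the lysosomal genes, 0.16, was close to that of all genes, 0.18.

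**Figure D1:**
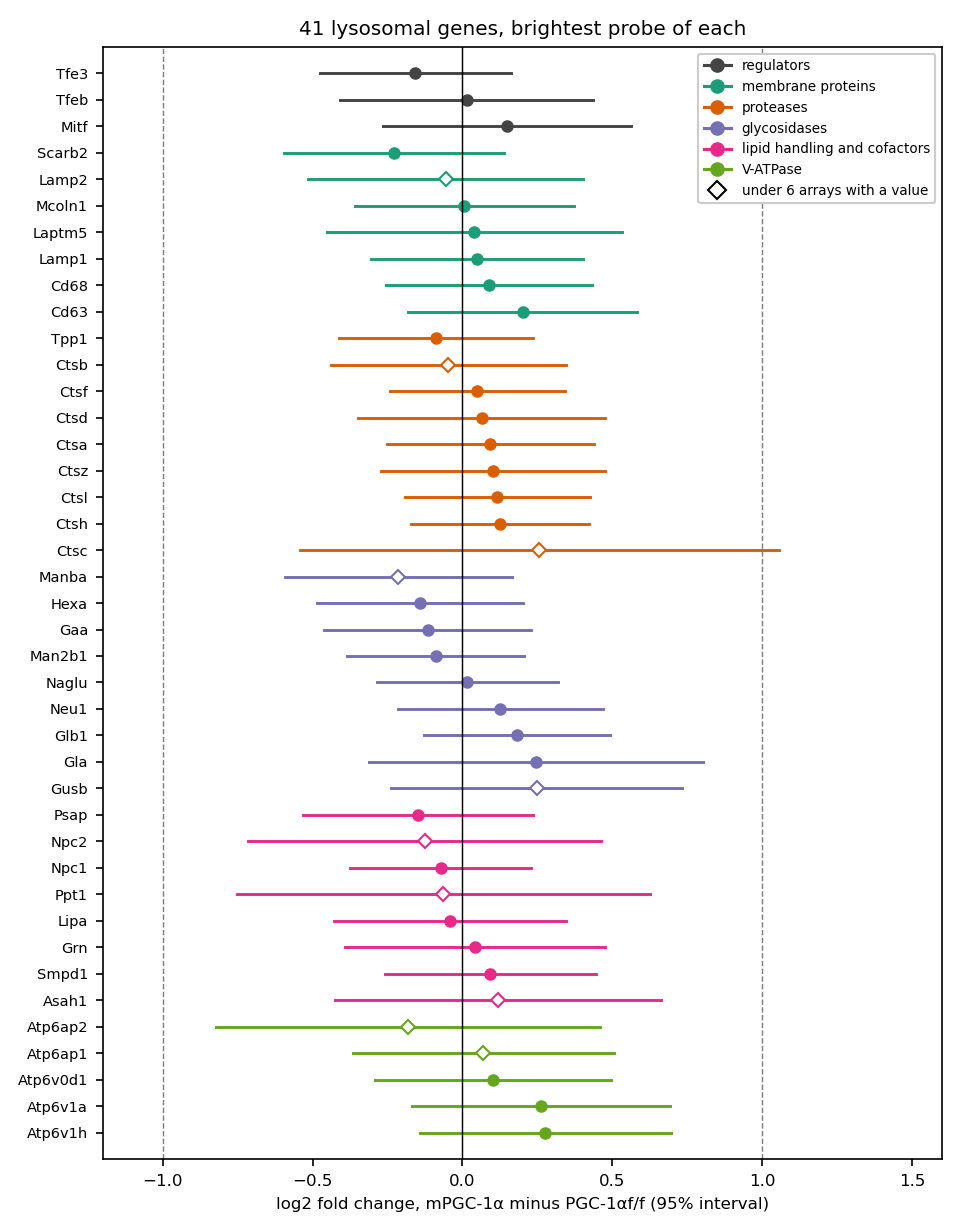
Log2 fold change (mPGC-1α minus PGC-1αf/f, x axis) of each of the 41 lysosomal genes, coloured by role. Points are limma estimates and bars are 95% confidence intervals; open diamonds mark the 10 genes that lack a value on some array, and dashed lines mark a 2-fold change. The points lie between -0.23 and 0.28, every bar crosses 0, and 1 bar, that of Ctsc, passes the dashed line.

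**Figure D2:**
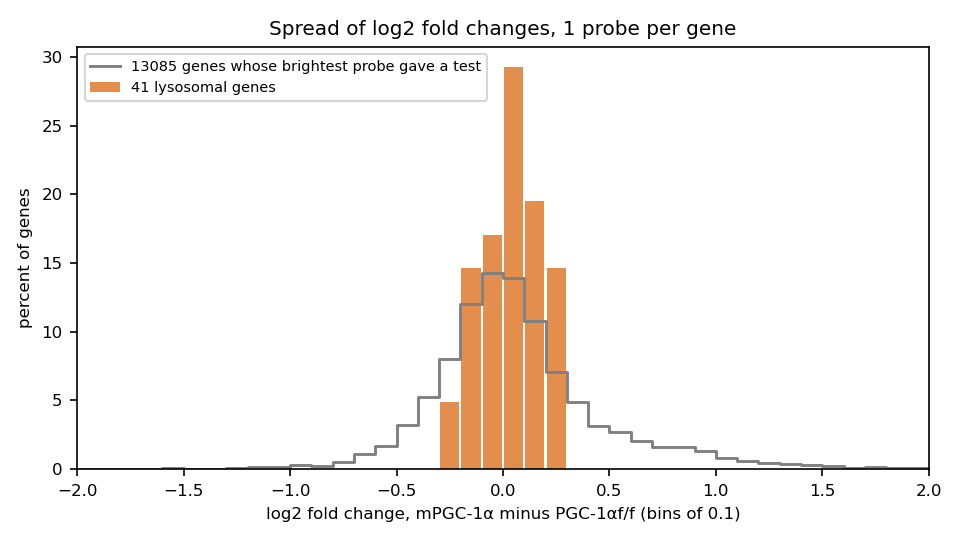
Share of genes in bins of 0.1 in log2 fold change (x axis), for the 13085 genes whose brightest probe gave a test (grey line) and for the 41 lysosomal genes (bars); the axis is drawn from -2 to 2. The bars stay within 0.3 of 0, and the grey line reaches further on both sides.

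Of the 41 genes 26 were higher and 15 lower in mPGC-1α microglia, against 52.9% of all genes that were higher. Their median log2 fold change was 0.049, and that of all genes 0.020. The sign of this median depended on how the arrays were scaled. It was -0.030 after quantile normalization, -0.043 after normexp background correction followed by quantile normalization, and -0.091 when arrays were aligned on their median. These settings also moved the median of all tested probes, from -0.0026 to -0.044, -0.039 and -0.14 in that order. The number of genes above 0 was then 13, 17 and 9 of the 41, and the number above the median of all probes 21, 20 and 26, against 26 as first scaled. Without the third mPGC-1α array the median was 0.00045, and without the third PGC-1αf/f array it was 0.0092. With both left out it was -0.047 over 37 genes.

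Among the 31 genes measured on all 6 arrays, the groups did not overlap for 2 (6.45%), against 23.1% of all genes with 6 values. These were Ctsh and Glb1, named here after their values were seen. Ctsh, a cathepsin that trims proteins from their amino end, had levels of 3.90, 3.85 and 3.78 in the PGC-1αf/f samples and 3.92, 3.91 and 4.08 in the mPGC-1α samples. The gap between the groups was small beside the range within mPGC-1α mice, and the difference of 0.13 (SE 0.13) had an adjusted p of 0.627 from limma. Without the third mPGC-1α array it was 0.069. Glb1, the lysosomal beta-galactosidase, had levels of 2.63, 2.79 and 2.85 against 2.90, 2.88 and 3.04, a difference of 0.18 (SE 0.13, limma adjusted p = 0.496). Every mPGC-1α array was above every PGC-1αf/f array for Glb1, and its second probe ran the other way, with a difference of -0.22 (SE 0.15). Without the first PGC-1αf/f array the brightest probe gave 0.12.

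The arrays differed in their lysosomal level, in a pattern that did not follow the groups. Levels are on the log2 scale, relative to the 75th percentile of the same array. Of the 31 genes, 15 were highest on the first PGC-1αf/f array and 10 on the third mPGC-1α array, and 14 were lowest on the third PGC-1αf/f array. The median deviation from each gene's own mean was 0.15, -0.045 and -0.087 in the PGC-1αf/f samples and 0.013, -0.025 and 0.12 in the mPGC-1α samples. By this measure the highest and the lowest array both belonged to PGC-1αf/f mice. The mean log2 level of the 31 genes was 3.18, 3.06 and 3.01 against 3.09, 3.09 and 3.20, so that by the mean the third mPGC-1α array was the highest and the groups still overlapped. Over all genes with 6 values the median deviations ran from -0.026 to 0.051. The 75th percentile itself was 1012, 1552 and 2138 intensity units in the PGC-1αf/f samples and 1276, 1667 and 1467 in the mPGC-1α samples, so that the array with the highest scaling value had the lowest lysosomal level by both measures. The array with the lowest scaling value had the highest level by the median deviation and the second highest by the mean. The part of the scaling in this pattern was not tested.

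**Figure D3:**
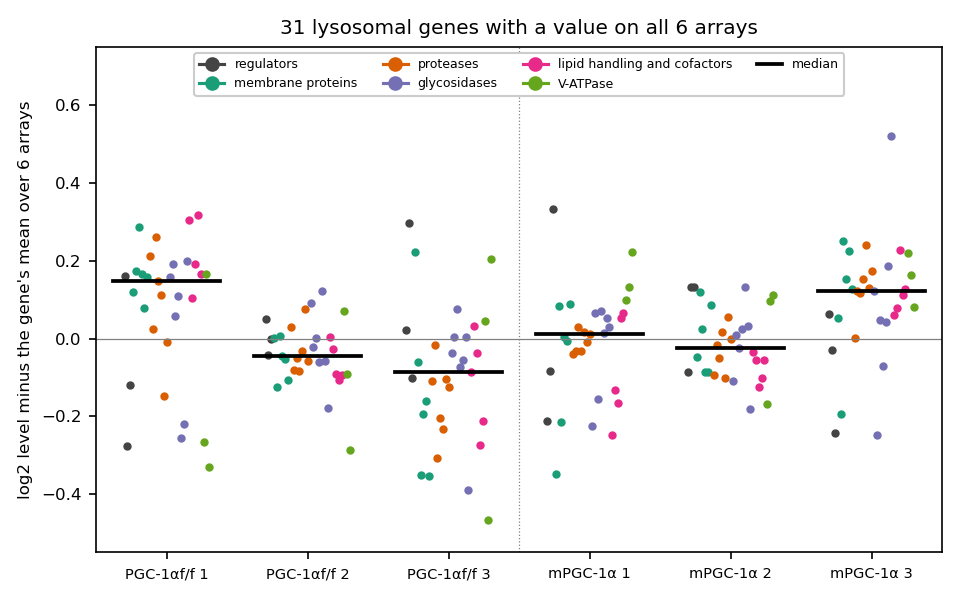
Log2 level of each of the 31 lysosomal genes with 6 values, minus the gene's mean over the 6 arrays (y axis), by array (x axis). Points are genes coloured by role and black bars are medians; the bar is highest on the first PGC-1αf/f array at 0.15 and lowest on the third at -0.087, with the mPGC-1α arrays between.

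The promoter stretches printed here are shown because the TFEB family is known to bind the E-box they hold. RefSeq promoter windows (GRCm38.p6, 250 bases before to 50 bases after the start of a transcript) were at hand for 36 of the 41 genes. The letters CACGTG occurred in the window of 12 of the 36 genes (33.3%), against 8.09% of all 27025 genes in the table and 24.3% of 70 other lysosomal genes. The longer word TCACGTGA, which contains the first and like it reads the same on both strands, occurred in 6 of the 36 (16.7%) against 1.12% of all genes and 10.0% of the 70 other lysosomal genes. These stretches of 30 bases hold that longer word, set in capitals, and run 5′ to 3′ on the strand of the gene.
Mcoln1, chr8:3500462-3500491, + strand: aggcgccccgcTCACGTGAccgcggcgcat
Ctsa, first of 2, chr2:164833749-164833778, + strand: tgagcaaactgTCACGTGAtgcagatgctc
Ctsa, the other, chr2:164833766-164833795, + strand: gatgcagatgcTCACGTGAccagagctaca
Ctsd, chr7:142387908-142387937, - strand: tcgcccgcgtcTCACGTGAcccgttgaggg
Gla, nearer to the start, chrX:134601182-134601211, - strand: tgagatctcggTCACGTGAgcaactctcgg
Gla, farther away, chrX:134601215-134601244, - strand: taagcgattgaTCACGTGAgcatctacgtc
Atp6v0d1, chr8:105566050-105566079, - strand: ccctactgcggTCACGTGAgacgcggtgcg
Atp6v1a, chr16:44139373-44139402, - strand: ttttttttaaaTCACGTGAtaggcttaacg
The 6 genes with these stretches differed between the groups by 0.0067 for Mcoln1 to 0.26 for Atp6v1a on the log2 scale, none past the threshold.

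Of the 12 genes with CACGTG in the window, 11 were higher in mPGC-1α microglia (Lamp1, Mcoln1, Ctsa, Ctsd, Ctsf, Ctsl, Gla, Glb1, Naglu, Atp6v0d1 and Atp6v1a) and Gaa was lower, with a median log2 fold change of 0.079. Of the 24 with a window and no such word, 12 were higher, with a median of -0.014. The count of 11 depended on the scaling, since 5 of the 12 were higher after quantile normalization, 6 after normexp with quantile normalization and 3 when arrays were aligned on their median, where 6, 8 and 4 of the 24 others were higher. Without the third PGC-1αf/f array 7 of the 12 were higher, with a median of 0.034. The letters AAGGTCA, a core site of the estrogen-related receptors that PGC-1α is known to coactivate, occurred on either strand in the windows of 3 genes, Mitf, Ctsa and Psap, or 8.33% of the 36 against 5.38% of all genes and 1.43% of the 70 other lysosomal genes. These 3 are among the 5 of the 36 genes that have more than 1 window, and a gene was counted when any of its windows held the letters. A match of letters describes the window and is not a measured site.

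Tfeb, the factor named as a master regulator of lysosome formation, had log2 levels of 0.23, 0.46 and 0.80 in the PGC-1αf/f samples and 0.42, 0.64 and 0.48 in the mPGC-1α samples. All mPGC-1α values lay inside the PGC-1αf/f range. The means were 0.50 ± 0.29 (SD, n = 3) and 0.51 ± 0.11 (SD, n = 3), a difference of 0.014 (SE 0.18, 95% interval -0.41 to 0.44, limma adjusted p = 0.974). A second probe of Tfeb had levels of -2.82, -2.67 and -2.26 against -2.99, -2.86 and -3.06. There every mPGC-1α array was below every PGC-1αf/f array, with a difference of -0.39 (SE 0.18) that did not pass the threshold (limma adjusted p = 0.325). The third Tfeb probe reached the well-above-background mark on none of the arrays.

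Tfe3, the second member of the family and an X-linked gene, had levels of 3.44, 3.33 and 3.30 in the PGC-1αf/f samples and 3.07, 3.19 and 3.34 in the mPGC-1α samples. The third mPGC-1α array lay among the PGC-1αf/f values and the other two lay below them. The difference was -0.16 (SE 0.13, 95% interval -0.47 to 0.16, limma adjusted p = 0.567), and it stayed below 0 in all 19 alternative settings. Without the first mPGC-1α array it was -0.090. Mitf, the third factor, known for melanocytes and for myeloid cells such as osteoclasts, had levels of 1.56, 1.68 and 1.58 against 2.01, 1.81 and 1.44. The first mPGC-1α array was the highest of the 6 and the third the lowest. The difference of 0.15 (SE 0.17, 95% interval -0.27 to 0.56, limma adjusted p = 0.684) was within that spread. It was 0.019 without the first mPGC-1α array and 0.31 without the third.

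Among the 7 membrane proteins 5 were higher and 2 lower, with a median of 0.040. Cd63, a tetraspanin of late endosomes and lysosomes, had the highest log2 fold change of the group. Its levels were 3.51, 3.24 and 2.99 in the PGC-1αf/f samples and 3.44, 3.43 and 3.48 in the mPGC-1α samples. The 3 mPGC-1α values were nearly alike and lay within the wide PGC-1αf/f range, and the difference was 0.20 (SE 0.16, limma adjusted p = 0.541). It was 0.074 without the third PGC-1αf/f array and 0.33 without the first. Scarb2, the receptor that carries glucocerebrosidase to the lysosome, had the lowest. Its levels were 2.86, 2.74 and 2.96 against 2.39, 2.69 and 2.79, and the first mPGC-1α array lay furthest below. The difference was -0.23 (SE 0.15, 95% interval -0.59 to 0.14, limma adjusted p = 0.470), and a second probe gave -0.36 (SE 0.23). Without the first mPGC-1α array the difference was -0.11.

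The other membrane proteins differed by less. Lamp1, a glycoprotein that coats the lysosomal membrane, differed by 0.049 and its relative Lamp2, which also serves chaperone-mediated autophagy, by -0.056 over 4 arrays. For both genes a second probe had the other sign, at -0.039 for Lamp1 and 0.11 for Lamp2. Cd68, a macrophage sialomucin often used as a stain for phagocytic microglia, differed by 0.089 (SE 0.15), and Laptm5, a lysosomal protein of blood cells, by 0.040. Mcoln1, the calcium channel through which lysosomes signal to TFEB, differed by 0.0067 (SE 0.15, 95% interval -0.36 to 0.37).

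Of the 9 proteases 7 were higher and 2 lower, and their median of 0.093 was the second highest of the role groups as first scaled. Ctsc, which activates granule proteases of neutrophils and lymphocytes, had the highest log2 fold change at 0.26 (SE 0.31). Its levels were 2.70, 2.74 and 3.29 in the PGC-1αf/f samples, and 1 mPGC-1α array, at 3.17, had a value after outlier spots were left out. With those spots kept, the mPGC-1α levels were 3.04, 3.02 and 3.17, inside the PGC-1αf/f range, and the difference was 0.17 (SE 0.19). Leaving out the third or the first PGC-1αf/f array moved the value of 0.26 to 0.45 and 0.15. Tpp1, a peptidase whose loss causes a childhood form of neuronal ceroid lipofuscinosis, had the lowest. Its levels were 3.65, 3.46 and 3.32 against 3.39, 3.34 and 3.44, a difference of -0.088 (SE 0.14, limma adjusted p = 0.762) with overlapping groups. It was -0.0039 without the first PGC-1αf/f array and -0.17 without the third.

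The remaining proteases lay close together. Ctsd, the main aspartic protease of the lysosome, differed by 0.064 (SE 0.17), and its highest and lowest levels, 5.26 and 4.69, both came from PGC-1αf/f mice. Ctsb, a cysteine cathepsin linked to the NLRP3 inflammasome, differed by -0.047 over 5 arrays. With its outlier spot kept, the third mPGC-1α array read 4.42, the highest of the 6, and the difference became 0.092 (SE 0.17). Ctsl, another cysteine cathepsin, differed by 0.12 (SE 0.13), Ctsz by 0.10, Ctsf by 0.049 and Ctsa, the protective protein that holds beta-galactosidase and neuraminidase in a complex, by 0.093.

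The 9 glycosidases split into 5 that were higher and 4 that were lower. Gusb, beta-glucuronidase, had the highest log2 fold change at 0.25 (SE 0.19, limma adjusted p = 0.534), from levels of 3.18 and 2.95 in 2 PGC-1αf/f samples and 3.24 and 3.38 in 2 mPGC-1α samples. With all spots kept the second arrays read 3.13 and 3.08 and the groups overlapped, at a difference of 0.15 (SE 0.14). Without the third PGC-1αf/f array the value of 0.25 was 0.13. Manba, beta-mannosidase, had the lowest at -0.21 (SE 0.15, limma adjusted p = 0.503). Its levels were 1.95 and 1.98 in 2 PGC-1αf/f samples and 1.76, 1.63 and 1.87 in the mPGC-1α samples, all lower. The spot left out on the first PGC-1αf/f array read 1.56, the lowest of the 6, and with it the difference was -0.077 (SE 0.16).

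Gla, the alpha-galactosidase that is deficient in Fabry disease, chosen here after its values were seen, was the most variable gene of this group, with levels of 0.42, 0.040 and -0.17 against 0.25, 0.037 and 0.74. The third mPGC-1α array was far above the other two, and the difference of 0.25 (SE 0.23) ran from 0.047 without that array to 0.41 without the first PGC-1αf/f array, and was -0.087 once the third array of both groups was left out. Neu1, a sialidase, differed by 0.13 (SE 0.14) and Naglu, a heparan sulfate enzyme, by 0.017. Hexa, the alpha subunit of beta-hexosaminidase, differed by -0.14 (SE 0.15), Gaa, the glycogen-degrading acid glucosidase, by -0.12 and Man2b1, an alpha-mannosidase, by -0.089. The last 3 were below 0 in all 19 alternative settings, and no setting brought them past the threshold. With 1 array left out Hexa ran from -0.24 to -0.064, Gaa from -0.18 to -0.020 and Man2b1 from -0.135 to -0.033.

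Of the 8 genes for lipid handling and enzyme cofactors 3 were higher and 5 lower. As first scaled this was the only role group with a median below 0, at -0.053. After quantile normalization the medians of membrane proteins and proteases were also below 0, at -0.068 and -0.0057. With arrays aligned on their median, every role group had a median below 0. Psap, the precursor of the saposins that help enzymes reach sphingolipids, had the lowest log2 fold change of the 8 genes. Its levels were 4.10, 3.80 and 3.71 in the PGC-1αf/f samples and 3.55, 3.76 and 3.86 in the mPGC-1α samples, which overlapped. The difference was -0.15 (SE 0.16, 95% interval -0.53 to 0.24, limma adjusted p = 0.661). It was -0.031 without the first PGC-1αf/f array, -0.060 without the first mPGC-1α array and -0.23 without the third PGC-1αf/f array. Asah1, acid ceramidase, had the highest at 0.12 (SE 0.21), from levels of 3.25, 3.03 and 3.08 against a single mPGC-1α value of 3.24. With outlier spots kept the mPGC-1α levels were 3.01, 2.99 and 3.24 and the difference was -0.038 (SE 0.14). With 1 PGC-1αf/f array left out, the value of 0.12 ran from 0.074 to 0.18.

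A second Asah1 probe gave a different picture. Its levels were 2.81 and 2.92 in 2 PGC-1αf/f samples and 2.07, 2.08 and 2.58 in the mPGC-1α samples, all of them lower. The difference of -0.62 (SE 0.21) was the only one among the further probes with an unadjusted limma p under 0.05, at 0.026, and its adjusted p was 0.254. Of the others, Npc1 and Npc2, which pass cholesterol out of the lysosome, differed by -0.073 and -0.13, the latter over 4 arrays. Lipa, acid lipase, differed by -0.042 and Ppt1, a thioesterase, by -0.064 over 3 arrays, with 0.10 when outlier spots were kept. Grn, progranulin, whose shortage in mice is known to activate microglia, differed by 0.042 (SE 0.18), and its highest and lowest levels, 5.48 and 4.89, were both from PGC-1αf/f mice. Smpd1, acid sphingomyelinase, differed by 0.092 (SE 0.15).

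As first scaled the V-ATPase had the highest median of the role groups, 0.10, with 4 of its 5 genes higher. Without the first PGC-1αf/f array its median was 0.069, below that of the proteases at 0.15. It was -0.032 with arrays aligned on their median. Atp6v1h, a regulatory subunit of the cytosolic sector, had the highest log2 fold change of all 41 genes. Its levels were 0.92, 0.96 and 1.45 in the PGC-1αf/f samples and 1.47, 1.36 and 1.33 in the mPGC-1α samples. The third PGC-1αf/f array lay among the mPGC-1α values and the other two lay well below. The difference was 0.28 (SE 0.18, 95% interval -0.14 to 0.70, limma adjusted p = 0.446), and without that array it was 0.45 (limma adjusted p = 0.282). Without the first PGC-1αf/f array it was 0.18. A second Atp6v1h probe pointed the other way, at -0.34 (SE 0.16, limma adjusted p = 0.346).

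Atp6v1a, the catalytic subunit, also picked with its values known, had levels of 3.19, 2.93 and 2.55 against 3.15, 3.12 and 3.19. Here the third PGC-1αf/f array was the lowest, and the difference of 0.26 (SE 0.18) was 0.094 without it and 0.41 without the first. Atp6v0d1, a subunit of the membrane sector, differed by 0.10 (SE 0.17) and Atp6ap1, an accessory subunit, by 0.069 over 4 arrays. Atp6ap2, the accessory subunit also known as the prorenin receptor, had the lowest log2 fold change of the pump, -0.18 (SE 0.23), from 1 PGC-1αf/f level of 3.25 and mPGC-1α levels of 3.06 and 3.08. With outlier spots kept its levels were 3.24, 3.23 and 3.25 against 3.06, 3.08 and 3.54, and the difference was -0.014 (SE 0.16). The first 2 mPGC-1α arrays were then below all PGC-1αf/f arrays and the third above them.

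The further probes describe how far a single probe can be trusted here. Of 21 further tested probes for 16 of the genes, 12 had the sign of the brightest probe and 9 the other sign. The 9 belonged to Tfeb, Lamp1, Lamp2, Ctsc, Gaa, Glb1, Asah1, Ppt1 and Atp6v1h. Both further probes of Grn were above 0 like the brightest one, at 0.38 (SE 0.31) and 0.29 (SE 0.17) beside 0.042. Probes of a gene can lie on different parts of its transcripts, which the values do not separate.

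**Figure D4:**
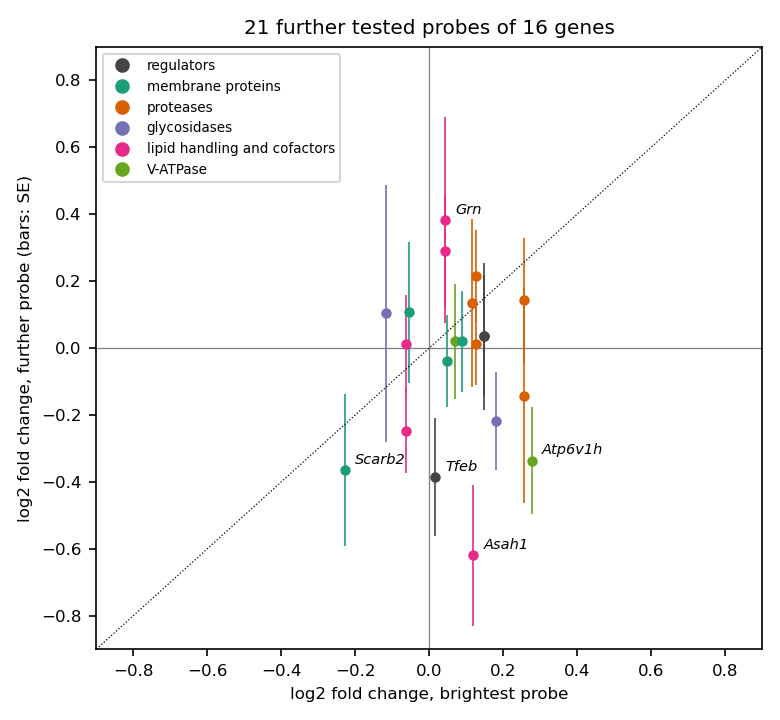
Log2 fold change of the brightest probe (x axis) against that of each of 21 further tested probes (y axis, bars are SE) of 16 lysosomal genes, coloured by role, with a dotted line of equal values. Points in the upper left and lower right quadrants have opposite signs; the lowest point is Asah1 at -0.62.

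Of the 41 genes, 15 kept 1 sign in every alternative setting that gave them a value, which was all 19 for 14 of them and 17 for Atp6ap2. The settings were other scalings, filters and fits and the omission of arrays. Since both quantile settings, the median shift and the unnormalized table moved the median of all probes downward, a gene below 0 kept its sign under them more readily than one above 0, and the split that follows is no measure of direction. Among them 5 were higher (Mitf, Cd63, Gusb, Atp6v1a and Atp6v1h) and 10 lower (Tfe3, Scarb2, Tpp1, Hexa, Gaa, Man2b1, Manba, Psap, Npc1 and Atp6ap2). No gene of the 41 passed the threshold in any setting that gave it a value. Among the 10 genes with missing spots, keeping the outlier spots changed the sign of Ctsb, Ppt1 and Asah1, and with all spots kept the groups did not overlap for the same 2 genes, Ctsh and Glb1, of 41 (4.88%), against 22.8% of all genes.

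A wider list of 93 further lysosomal genes was read in the same way, with 87 of them tested. None passed the threshold, and 5 (5.75%) had an unadjusted limma p under 0.05 against the same 13.6% of all genes. Their median log2 fold change was 0.014, with 46 higher and 41 lower. The sign of this median also depended on the scaling. It was -0.059 after quantile normalization, -0.052 after normexp with quantile normalization and -0.13 when arrays were aligned on their median. In the deposited table without normalization it was -0.029. The counts by role that follow are as first scaled. The other subunits of the V-ATPase were higher for 10 of 13 genes, and the other regulators, mainly of the mTORC1 pathway that holds TFEB in the cytosol, for 6 of 19.

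Acp5, the tartrate-resistant acid phosphatase of osteoclasts and some macrophages, stood furthest out of these. Its levels were -0.84, -0.61 and -2.79 in the PGC-1αf/f samples and -0.20, 0.30 and 0.67 in the mPGC-1α samples, without overlap. The difference was 1.67 (SE 0.57, limma adjusted p = 0.244), and 0.98 without the third PGC-1αf/f array (limma adjusted p = 0.202), the array on which the monocyte and neutrophil markers were lowest. The part of these markers in the value was not tested. Tfec, the fourth member of the TFEB family, which is known to be expressed mainly in macrophages, had levels of -2.93, -2.16 and -2.50 against -2.21, -1.61 and -1.51. The groups overlapped by a small margin, and the difference was 0.75 (SE 0.26, limma adjusted p = 0.251).

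Rragd, a Rag GTPase that recruits mTORC1 to the lysosome and is itself a known target of the TFEB family, had levels of -1.84, -2.46 and -3.50 against -1.40, -1.67 and -1.87. The lowest was again the third PGC-1αf/f array, and the difference of 0.95 (SE 0.40, limma adjusted p = 0.297) was 0.50 without it. Atp6v1d, a stalk subunit of the pump, had levels of 2.89, 2.77 and 2.63 against 3.04, 3.04 and 3.15, with no overlap and a difference of 0.31 (SE 0.13, limma adjusted p = 0.298). Arsb, arylsulfatase B, was the only one of the 5 that was lower, with levels of 1.42, 1.18 and 1.43 against 1.06, 1.03 and 0.72, no overlap and a difference of -0.41 (SE 0.16, limma adjusted p = 0.272).

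RNA came from all captured cells together, so fewer cells of a type and less RNA per cell cannot be told apart. Of the 12 microglia markers 11 were lower in mPGC-1α mice, with a median of -0.24 and none past the threshold. The lowest was Cx3cr1, whose locus carries Cre in mPGC-1α mice, at -0.51 (SE 0.14), and the part of the insertion was not tested. Of 10 monocyte and neutrophil markers 9 were higher, with a median of 1.18, and 8 of 8 oligodendrocyte markers were lower, with a median of -0.58. Of these 8, Mog and Opalin were well above background on every PGC-1αf/f array but not on every mPGC-1α array. The filter thus admitted them through the group in which they were higher. The other oligodendrocyte markers were well above background on every array and also lower. Markers of border macrophages, which share many genes with microglia, were higher for 8 of 8, with a median of 0.29, and those of endothelial and mural cells for 6 of 6 tested, with a median of 0.48. Pecam1, an endothelial marker left out by the filter, was lower on every mPGC-1α array, with means of -3.37 in PGC-1αf/f and -4.18 in mPGC-1α samples. It was well above background on 2 PGC-1αf/f arrays and on none of the mPGC-1α arrays. Rgs5, also left out, was well above background on no array. Without the third PGC-1αf/f array the medians were 0.26 for the monocyte and neutrophil markers, 0.046 for endothelial and mural markers (5 of 6 higher), 0.29 for border macrophage markers (7 of 8), -0.44 for oligodendrocyte markers and -0.15 for microglia markers. The summed level of the 7 border macrophage markers with 6 values was 11.6, 10.7 and 9.52 against 10.1, 13.1 and 17.4, highest on the third mPGC-1α array. The summed level of the monocyte and neutrophil markers, in units of the 75th percentile, was 134, 150 and 34.9 in the PGC-1αf/f samples and 152, 160 and 184 in the mPGC-1α samples. For the 31 lysosomal genes with 6 values the summed level was 393, 347 and 321 against 350, 348 and 387. Like that of the monocyte and neutrophil markers, it was lowest on the third PGC-1αf/f array. The part of cell makeup in the lysosomal values was not tested.

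**Figure D5:**
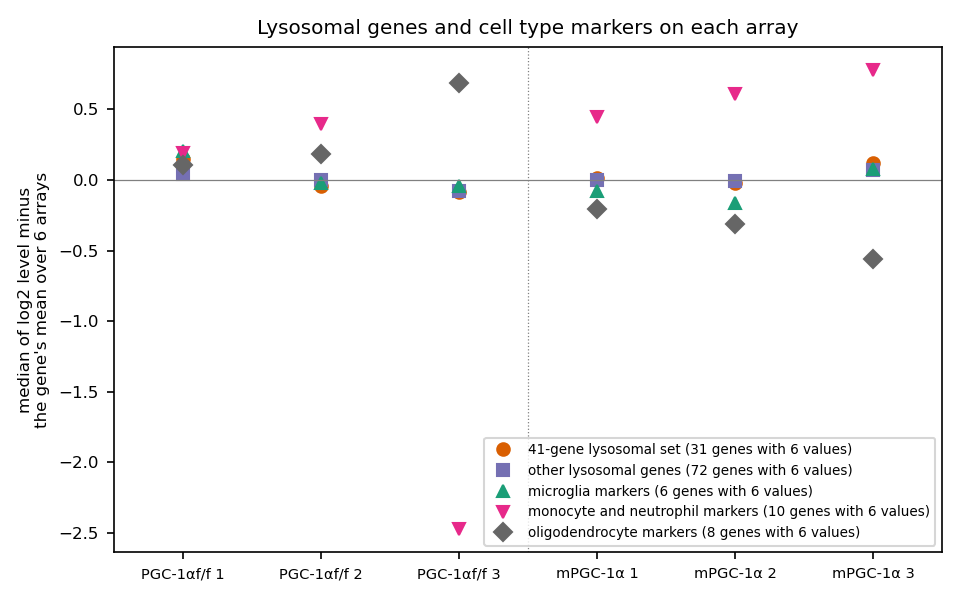
Median of the log2 level minus each gene's mean over the 6 arrays (y axis), by array (x axis), for the lysosomal genes, other lysosomal genes and 3 lists of cell type markers, over genes with 6 values. The lysosomal medians stay between -0.087 and 0.15, and the monocyte and neutrophil markers lie at -2.48 on the third PGC-1αf/f array.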

How the data were processed

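Labelled cDNA from total RNA of each microglia sample was hybridised to an Agilent mouse 1-colour array (Cy5). The deposited scanner files hold spot intensity, background-corrected by the authors' Feature Extraction software and not normalized between arrays, and the study names GeneSpring for later normalization. A deposited table of intensity values for the whole series served as an alternative. Here log2 intensity was shifted by the 75th percentile of each array's 59305 non-control spots, outlier-flagged spots were left out and spots of a probe averaged. The test covered probes that every array of 1 group or of both marked well above background (25333 of 56605, 25257 with a p-value) with limma 3.58.1 (lmFit, eBayes, two-sided) in R 4.3.3, Benjamini-Hochberg adjusted over all tested probes. The scanner header names build mm9. RefSeq accessions (GRCm38.p6 tables) named 33767 probes, 23462 genes.

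The script was tested on simulated data. Values on each array were given for Tfeb, Tfe3, Mitf and the genes with the highest and lowest log2 fold change of each role group, and, chosen after their values were seen, for Ctsh, Glb1, Gla, Atp6v1a and second probes of Tfeb and Asah1. Other lysosomal genes were named where their unadjusted p was under 0.05. The genes and lists were chosen with earlier results of these data known. The labels do not say that replicates came from separate mice, so p-values measure the spread between these samples. The precision is limited by 3 arrays per group. Alternatives covered scaling, background, filters, probe choice, blocks and each array left out. Keeping outlier spots and leaving out the third array of both groups were added after the data were seen.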

Additional observations from a re-analysis of the deposited data

How the results depend on the processing

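No lysosomal gene of the 41 passed the threshold under any of the 19 alternatives that gave it a value (17 for Ctsc, Ppt1, Asah1 and Atp6ap2), and the replicate block gave 0 of 41 and 0 of 25257 probes. Replicate numbers were not treated as pairs. Same-numbered arrays deviated together with correlations of 0.14, 0.13 and 0.019. Calls over all probes ranged from 0 to 754 (array weights). With array weights, and without the first or the third PGC-1αf/f array, 1 lysosomal gene, higher in mPGC-1α mice, had an unadjusted limma p under 0.05. The same count held with the third array of both groups left out, and it was 0 in the other settings. Of the other lysosomal genes 1, Acp5, passed in the deposited table without normalization (adjusted p = 0.0103) and 0 otherwise. The median of 0.049 became -0.030 (quantile), -0.091 (median shift), -0.043 (normexp with quantile) and -0.047 (the third array of both groups left out, chosen after seeing the data), and ran from 0.00045 to 0.092 with 1 array left out. Within slide column 1 it was -0.10 (9 of 33 higher) and within column 2 0.0044 (19 of 35), beside 0.0091 (51.1% higher) and 0.021 (53.2% higher) over all genes. The cause was not tested.

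Sign changes of single genes were as follows. Median shift: Tfeb -0.12, Lamp1 -0.084, Cd68 -0.044, Laptm5 -0.093, Mcoln1 -0.13, Ctsa -0.040, Ctsd -0.068, Ctsf -0.084, Ctsh -0.0072, Ctsl -0.016, Ctsz -0.030, Neu1 -0.0065, Naglu -0.12, Grn -0.091, Smpd1 -0.040, Atp6v0d1 -0.032, Atp6ap1 -0.12. Quantile: Lamp1 -0.073, Cd68 -0.028, Laptm5 -0.068, Mcoln1 -0.028, Ctsa -0.030, Ctsf -0.060, Ctsl -0.0036, Ctsz -0.0057, Naglu -0.083, Grn -0.0065, Asah1 -0.076, Smpd1 -0.018, Atp6ap1 -0.010. Normexp with quantile: Lamp1 -0.025, Cd68 -0.067, Laptm5 -0.13, Mcoln1 -0.14, Ctsc -0.18, Ctsf -0.067, Ctsl -0.028, Ctsz -0.0066, Naglu -0.043, Lipa 0.051, Smpd1 -0.044. Deposited table: Tfeb -0.022, Mcoln1 -0.028, Naglu -0.015, Atp6ap1 -0.15. Mean over probes: Tfeb -0.19, Lamp2 0.066, Glb1 -0.018, Asah1 -0.37. Array weights: Lamp1 -0.0079, Laptm5 -0.024, Ctsb 0.030, Ctsz -0.00090, Atp6v0d1 -0.061. Slide column as a random block: Laptm5 -0.034, Grn -0.0036. Replicate block: Ctsc -0.12, Npc2 0.15, Ppt1 0.040. Outlier spots kept: Ctsb 0.092, Ppt1 0.10, Asah1 -0.038. The third array of both groups left out: Lamp1 -0.10, Cd68 -0.060, Laptm5 -0.24, Ctsa -0.040, Ctsd -0.12, Ctsz -0.083, Gla -0.087, Grn -0.13, Smpd1 -0.031.

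With 1 array left out, Tfeb ran from -0.12 to 0.17, Lamp1 from -0.036 to 0.14, Lamp2 from -0.14 to 0.029, Cd68 from -0.0019 to 0.15, Laptm5 from -0.13 to 0.19, Mcoln1 from -0.054 to 0.10, Ctsb from -0.13 to 0.016, Ctsd from -0.074 to 0.21, Naglu from -0.017 to 0.076, Npc2 from -0.37 to 0.12, Lipa from -0.17 to 0.043, Grn from -0.085 to 0.21, Ppt1 from -0.17 to 0.040 and Atp6v0d1 from -0.0072 to 0.21. Ctsa ran from 0.014 to 0.19, Ctsf from 0.00045 to 0.077 and Ctsz from 0.0079 to 0.18, without a sign change. Neu1 ran from 0.030 to 0.22, Smpd1 from 0.0092 to 0.20 and Npc1 from -0.13 to -0.024, also without one.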
